A study of Mus musculus with 9 samples.

Results

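The 10 genes described here, Acan, Bcan, Ncan, Vcan, Hapln1, Hapln2, Hapln4, Tnr, Has2 and Has3, encode the backbone of the perineuronal net and of the hyaluronan matrix of the brain. They were taken as a fixed list of names, and all 10 were found among the 35975 mouse genes with a quantified transcript. Of these genes, 15340 were expressed enough to be tested, and 9 of the 10 were among them; Has2 was below the filter. RNA was sequenced from the mediobasal hypothalamus (MBH), which includes the arcuate nucleus, of wild-type C57Bl/6 male mice at postnatal day (P) 21. In the control group (CTRL, 4 libraries) the dams drank plain water. In the emulsifier group (Emul, 5 libraries) the dams drank water with 1% carboxymethyl cellulose (CMC) and 1% polysorbate 80 (P80), from before mating until the pups were weaned. Pups of both groups stayed with their dams until P21, so direct intake of the emulsifiers by the Emul pups cannot be told apart from exposure through the dam. The study names 4 control and 5 emulsifier litters, as many as there are libraries, and p-values measure the spread between these litters.

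Perineuronal nets are condensed sheets of extracellular matrix that enclose the soma and proximal dendrites of some neurons, and they mature during the postnatal weeks in which the animals were sampled. Hyaluronan, a long sugar polymer extruded at the plasma membrane by synthases, among them Has2 and Has3, is the thread of the net. Chondroitin sulfate proteoglycans of the lectican family, aggrecan (Acan), brevican (Bcan), neurocan (Ncan) and versican (Vcan), bind this thread at one end, and the link proteins (Hapln1, Hapln2 and Hapln4) fasten that contact. Tenascin-R (Tnr) crosslinks the lecticans at their other end. In the MBH, nets form around neurons of the arcuate nucleus. Versican V2 and Hapln2 are also known from the matrix at nodes of Ranvier in myelinated tracts.

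The libraries held between 28245360 and 46067534 estimated counts, with the lowest total in CTRL 3. The labelled tissue was checked on 8 genes of the MBH, among them Npy, Pomc, Agrp and Nr5a1. Of these, 7 were expressed enough to be tested and their summed level was 137 to 157 CPM (counts scaled to a common library size) in CTRL and 127 to 194 CPM in Emul. Markers of thalamus, a neighboring region, summed to 164 to 206.2 CPM in CTRL and to 171 to 377 CPM in Emul, with a median log2 fold change of 0.55 over the 7, of which 1 (Ntng1) was higher at an unadjusted p under 0.05. Emul 1, Emul 2 and Emul 3, with 267, 228 and 377 CPM, were above every CTRL library, whereas Emul 4 and Emul 5 had 177 and 171 CPM. CTRL 2, at 206.2 CPM, was the highest CTRL library and nearer to Emul 2 than Emul 1 was. CTRL 1, CTRL 3 and CTRL 4 had 167, 164 and 170 CPM. Slc17a7, from the list for cortex and hippocampus, was also highest in Emul 1, Emul 2 and Emul 3. No marker of the lists for MBH and thalamus was called at an adjusted p of 0.05.

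Few differences of the matrix genes between the groups passed a test. In bulk tissue, fewer cells of a type and less RNA per cell cannot be told apart, which holds for each difference given here. Brevican, the most abundant lectican of the MBH, was 6.54% lower in Emul, and the hyaluronan synthase Has3 was 16.1% lower. These were the only 2 of the 9 genes tested with an unadjusted p under 0.05 in limma-voom, and neither reached an adjusted p of 0.05. The link protein Hapln2 had the largest difference of the 9 tested, at −0.34 on the log2 scale, with a wide spread between litters and a p above the threshold. Aggrecan and Hapln1, both typical of dense nets, had slightly higher means in Emul without passing the test.

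Of all genes tested, 15.8% (2428 of 15340) had an unadjusted p under 0.05, 8.99% in the direction of lower expression in Emul and 6.84% in the direction of higher. The 2 of 9 matrix genes, both lower, stand beside those shares, and no test of the list against all genes was made. A more than 1.5-fold change at an unadjusted p under 0.05, which is 1 reading of the cutoff in the study's methods (a legend there speaks of a false discovery rate), was met by 0.469% of all genes tested and by 0 of the 9. An adjusted p under 0.05 was met by 0.117% of all genes and again by 0 of the 9. Libraries of CTRL and Emul did not overlap in 6.60% of all genes, and in 1 of the 9 (Has3). The median log2 fold change was −0.08 over the 9 genes, of which 7 were lower, and 0.00 over all genes tested, of which 49.2% were lower. Regardless of sign, the median was 0.10 over the 9 genes and 0.06 over all genes, with a median SE of 0.073 and 0.058.

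With Emul 1, Emul 2 and Emul 3, the libraries rich in thalamic markers, left out together, 4 CTRL and only 2 Emul libraries remained, and 1 of the 9 genes had an unadjusted p under 0.05, against 12.8% of all genes tested. This was Acan, with a log2 fold change of 0.37 (SE 0.097, unadjusted p = 0.00396, adjusted p = 0.255, limma-voom). Bcan was at −0.11 and Has3 at −0.18 (unadjusted p = 0.0573 and 0.187), so neither kept its call. Hapln1 was at 0.18 and Hapln2 at −0.42 (unadjusted p = 0.0578 and 0.120), and Tnr changed sign to 0.04 (unadjusted p = 0.477). Of other genes described further on, Adamts4 and Adamts1 were at −0.43 and −0.63, and Chsy1 at −0.14 (unadjusted p = 0.0103, 9.8e-05 and 0.0603). Of 8 markers of mature oligodendrocytes, 2 had an unadjusted p under 0.05, against 7 in the fit with all libraries. An adjusted p under 0.05 was met by 0 of all genes tested in this smaller fit. This fit was added after the data had been seen, and the part of the thalamic markers in the results was not tested further.

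**Figure D1:**
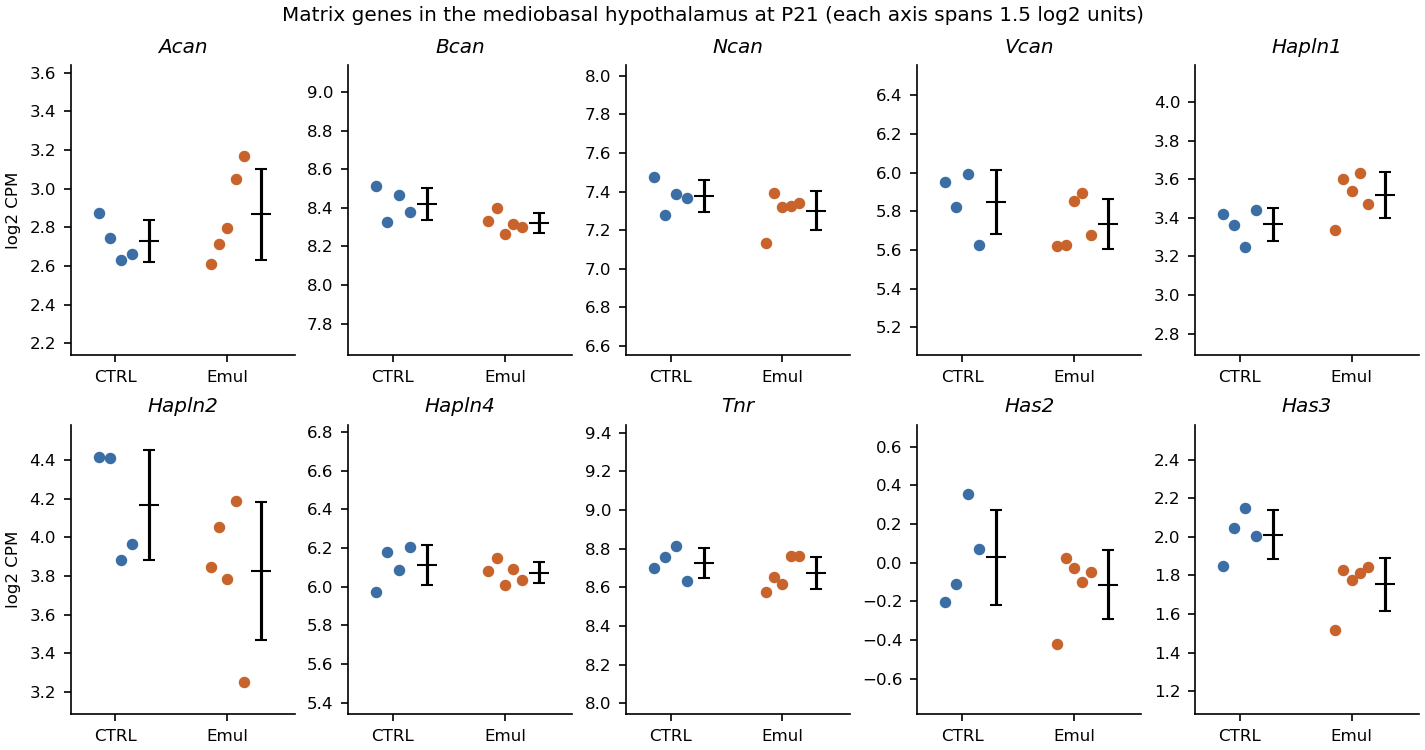
Expression of each matrix gene by library, in log2 CPM, with 4 CTRL (blue) and 5 Emul (orange) points per panel and the group mean ± SD in black. Every vertical axis spans the same number of log2 units, so the wide spread of Hapln2 and the narrow spread of Bcan can be compared directly, and the groups are apart only in Has3.

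Among the lecticans, brevican (chr3:87987531-88000230, minus strand, mm10) is secreted mainly by glia and coats both nets and the looser matrix around synapses. Its log2 CPM was 8.51, 8.33, 8.47 and 8.38 in CTRL 1 to 4, and 8.33, 8.40, 8.26, 8.32 and 8.30 in Emul 1 to 5. The highest 2 values were CTRL 1 and CTRL 3, and the other 2 CTRL libraries lay inside the Emul range. The log2 fold change was −0.10 (SE 0.041, 95% interval −0.19 to −0.01), with an unadjusted p of 0.0331 and an adjusted p of 0.268 (limma-voom). The two-sided exact permutation test of the group means, whose smallest possible p is 0.0079 with these group sizes, gave 0.0794. The limma-voom p was near the threshold, and the call was lost with any of several single libraries left out. It was lost without CTRL 1 (log2 fold change −0.07, unadjusted p = 0.126). The call was also lost without CTRL 3 (−0.08, unadjusted p = 0.0873) and without Emul 3, Emul 4 or Emul 5 (−0.08, −0.09 and −0.09, unadjusted p = 0.0728, 0.0597 and 0.0572). The direction was always the same.

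Neurocan (chr8:70093085-70120873, minus strand), which is most abundant in the developing brain, ranged from 7.28 to 7.48 log2 CPM in CTRL and from 7.13 to 7.39 in Emul. The groups overlapped, and the fitted difference was −0.08 (SE 0.052, adjusted p = 0.514, limma-voom). Emul 1 was the lowest library, and without it the difference was −0.03 (unadjusted p = 0.447). It was −0.04 without CTRL 1 (unadjusted p = 0.459).

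Aggrecan (chr7:79053483-79115099, plus strand) is the lectican by which dense nets are commonly recognized. It was scarce in the MBH, at 175 to 373 counts per library. Its log2 CPM was 2.88, 2.75, 2.63 and 2.66 in CTRL 1 to 4, and 2.61, 2.71, 2.79, 3.05 and 3.17 in Emul 1 to 5. Emul 4 and Emul 5 were above every CTRL library, whereas Emul 1 was below all of them. The log2 fold change was 0.14 (SE 0.12, 95% interval −0.12 to 0.39, adjusted p = 0.604, limma-voom), and the interval spans both directions. It was 0.07 without Emul 5 (unadjusted p = 0.537), 0.08 without Emul 4 (unadjusted p = 0.492) and 0.20 without Emul 1 (unadjusted p = 0.101).

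Versican (chr13:89655312-89742509, minus strand) is spliced into forms that differ in the stretches to which chondroitin sulfate is attached. Log2 CPM from the summed counts was 5.95, 5.82, 5.99 and 5.63 in CTRL 1 to 4, and 5.62, 5.63, 5.85, 5.90 and 5.68 in Emul 1 to 5. Low and high libraries occurred in both groups, and the log2 fold change was −0.10 (SE 0.080, 95% interval −0.28 to 0.07, adjusted p = 0.555, limma-voom). CTRL 4 was the low library of its group, and without it the log2 fold change was −0.18 with an unadjusted p of 0.0265. Without CTRL 1 or CTRL 3 it was −0.07 and −0.06 (unadjusted p = 0.453 and 0.471).

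The 4 long forms of versican are told apart by 2 large exons, α (2880 bases, chr13:89702918-89705797) and β (5217 bases, chr13:89688285-89693501). V0 holds both, V1 only β, V2 only α and V3 neither. The coding junctions at which they part are given below from the mm10 genome on the minus strand to show where the forms differ. Lower case marks the last 30 bases of the upstream exon and capitals the first 30 bases of the downstream exon.
V0 (α to β): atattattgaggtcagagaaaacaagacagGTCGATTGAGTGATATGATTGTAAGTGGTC
V1 (into β without α): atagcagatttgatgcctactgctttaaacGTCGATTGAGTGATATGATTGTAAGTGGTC
V2 (α, past β): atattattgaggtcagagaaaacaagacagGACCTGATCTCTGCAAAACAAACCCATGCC
V3 (neither): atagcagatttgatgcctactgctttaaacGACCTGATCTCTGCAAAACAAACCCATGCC

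Among the 4 long forms, versican counts in the MBH were assigned almost entirely to V0 and V2. The transcript of V0 (with the longest coding region, 10062 bases) held 1116 to 1778 counts per library and that of V2 609 to 860. V1 was listed at 0 in 4 libraries and reached at most 45.4 counts, in CTRL 3. V3 had no counts above rounding error. Of the length-corrected level (TPM, in which each read is divided by the length of its transcript and the library is scaled to a fixed total) of these 4 forms together, V2 made up 55.5, 57.4, 53.3 and 53.0% in CTRL 1 to 4, and 55.7, 50.0, 52.9, 51.5 and 52.6% in Emul 1 to 5. The means were 54.8% ± 2.05 in the 4 CTRL and 52.6% ± 2.12 in the 5 Emul libraries (SD), and the groups overlapped (exact permutation test, two-sided, p = 0.143). As a share of all Vcan counts, V2 gave 34.8% ± 1.63 and 32.6% ± 1.88, with an adjusted p of 0.437 in the exact permutation test over 11 transcript shares. The transcripts of V0 and V2 also differ by 1333 bases at the 3′ end and 175 bases at the 5′ end, so that reads at the ends enter this split beside those at the junctions. The transcript of V1 (8332 bases, 7182 of them coding) likewise has fewer noncoding bases than that of V0 (12427 bases in all). Reads at the ends can thus enter the split of V0 and V1 too.

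A single short transcript carried much weight in the versican level once it was corrected for length. This annotated fragment of the coding region, of 294 bases, received 42.4 counts in all 9 libraries together. It was listed at 0 in CTRL 1, CTRL 2, CTRL 3 and Emul 1. It nonetheless took 28.4% of the Vcan TPM in Emul 3 from 15.4 counts, 25.4% in Emul 2, 17.0% in Emul 4 and 10.3% in CTRL 4. V2 as a share of all Vcan TPM was 46.2% ± 1.02 in CTRL and 38.4% ± 6.10 in Emul, and the groups did not overlap (exact permutation test, p = 0.0476, adjusted p = 0.454), but they did overlap when the share was taken among V0 to V3 alone, as above. The log2 CPM table deposited by the authors also departed from the summed counts in Emul 2, Emul 3 and Emul 4. It was 0.50 log2 units higher for Vcan in Emul 3, 0.23 higher in Emul 2 and 0.20 higher in Emul 4, and within 0.11 in the other 6 libraries, CTRL 4 with its share of 10.3% among them. In that table the log2 fold change of Vcan was 0.07, opposite in sign to the value from summed counts, and neither passed the test.

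**Figure D2:**
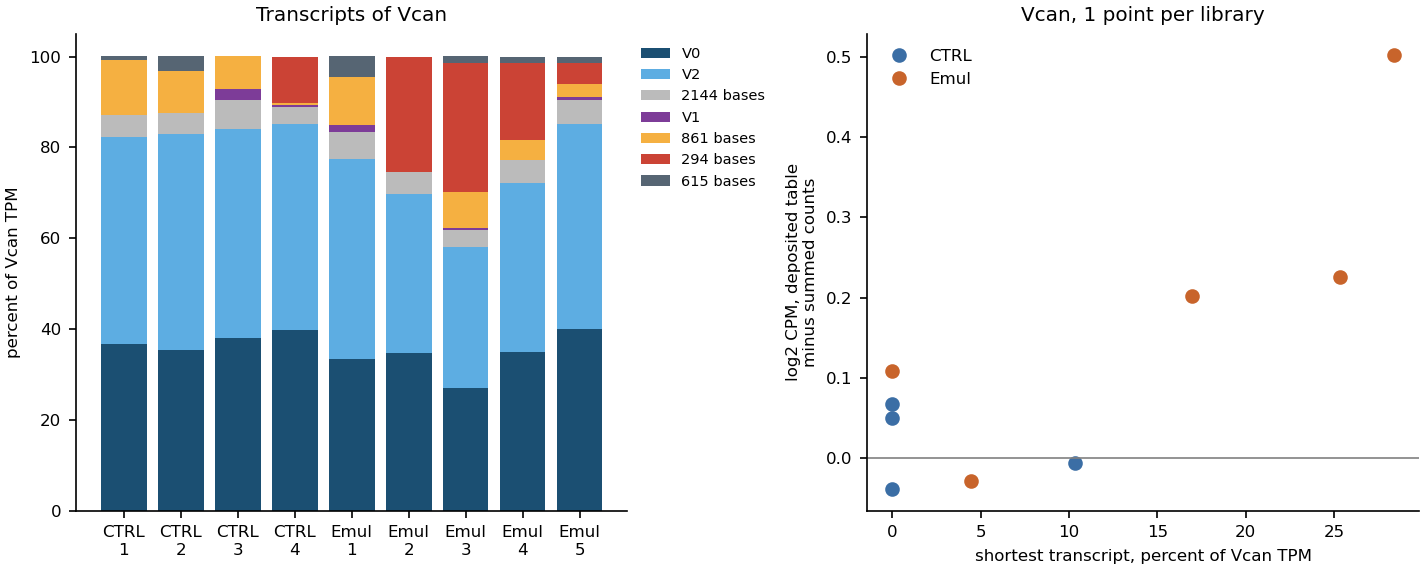
Left, the share of each Vcan transcript in the summed TPM of the gene, in percent, for each library. Right, the log2 CPM of Vcan in the authors' table minus that from summed counts, against the share of the shortest, 294-base transcript, with 1 point per library; the 3 libraries with the largest shares of it, Emul 2, Emul 3 and Emul 4, are also those with the largest gaps.

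Hapln1, Hapln2 and Hapln4 lie beside lectican genes. Vcan and Hapln1 are 43659 bases apart, Bcan and Hapln2 21519 and Ncan and Hapln4 2222, with 0 coding genes between the members of each pair, and Acan has Hapln3 as its neighbor. In the reported fit the fold changes of Vcan and Hapln1 had opposite signs, but neither passed the test. The log2 fold change of Vcan was 0.07 in the table deposited by the authors, where that of Hapln1 was 0.14. Whether neighbors change together was not tested.

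Hapln1 (chr13:89539796-89611652, plus strand) is the link protein whose expression accompanies net formation. Its log2 CPM was 3.42, 3.36, 3.25 and 3.44 in CTRL 1 to 4, and 3.34, 3.60, 3.54, 3.63 and 3.47 in Emul 1 to 5. All Emul libraries except Emul 1 were above the highest CTRL library. The log2 fold change was 0.15 (SE 0.073, 95% interval −0.01 to 0.31, unadjusted p = 0.0703, adjusted p = 0.357, limma-voom), and the exact permutation test gave p = 0.0794. Without Emul 1 the log2 fold change was 0.19 with an unadjusted p of 0.0146. With any other single library left out it was between 0.11 (without CTRL 3, unadjusted p = 0.166) and 0.17 (without CTRL 4, unadjusted p = 0.0676).

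Hapln4 (chr8:70083457-70090862, plus strand), which holds brevican at inhibitory synapses and nets, ranged from 5.97 to 6.21 log2 CPM in CTRL and from 6.01 to 6.15 in Emul. All Emul libraries lay within the CTRL range, with a log2 fold change of −0.04 (SE 0.049, 95% interval −0.15 to 0.07).

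Hapln2 (chr3:88021750-88027583, minus strand), or Bral1, is made by oligodendrocytes and assembles the matrix at nodes of Ranvier. It had the widest spread of the 9 genes tested. Its log2 CPM was 4.42, 4.41, 3.88 and 3.97 in CTRL 1 to 4, and 3.85, 4.05, 3.78, 4.19 and 3.25 in Emul 1 to 5. CTRL 1 and CTRL 2 were high, Emul 5 was low, and the other 6 libraries were mixed. The log2 fold change was −0.34 (SE 0.17, 95% interval −0.71 to 0.03, unadjusted p = 0.0653, adjusted p = 0.350, limma-voom). It was −0.21 (unadjusted p = 0.143) without Emul 5, and −0.26 without CTRL 1 or CTRL 2 (unadjusted p = 0.177 and 0.188). It was −0.42, −0.42, −0.39 and −0.44 (unadjusted p = 0.0325, 0.0381, 0.0494 and 0.0238) without CTRL 3, CTRL 4, Emul 2 or Emul 4.

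Most of the Hapln2 reads were assigned to a transcript that keeps an intron. The transcript annotated as a retained intron held 81.2 to 86.8% of the Hapln2 counts in CTRL and 82.8 to 89.2% in Emul. The fully spliced coding transcript held 7.51 to 14.3% in CTRL and 5.23 to 10.4% in Emul. The kept intron is 211 bases long (chr3:88024119-88024329) and interrupts the coding region. Both continuations of the exon before it are given from the mm10 genome on the minus strand, with the last 30 bases of that exon in lower case and the 30 bases that follow in capitals.
Hapln2 (spliced): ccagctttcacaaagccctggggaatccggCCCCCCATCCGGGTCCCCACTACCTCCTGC
Hapln2 (intron kept): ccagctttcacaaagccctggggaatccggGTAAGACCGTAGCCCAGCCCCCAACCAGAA

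The transcript with the intron is also longer than the spliced one by 311 bases at its 3′ end and 105 at its 5′ end, and how many of its reads came from the intron itself was not measured here. Its share was 83.3% ± 2.49 in CTRL and 86.2% ± 3.11 in Emul, with an adjusted p of 0.437 in the exact permutation test. The spliced transcript alone gave 31.5 to 124.9 counts in CTRL and 17.9 to 74.8 in Emul. Fitted on this transcript in place of the gene sum, the log2 fold change was −0.82 with an unadjusted p of 0.0362, an alternative that was chosen after the data had been seen.

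The genes most alike to Hapln2 from library to library were genes of oligodendrocytes. The 3 genes with the highest Pearson correlation to it over the 9 libraries, among 11268 genes compared, were Mobp (r = 0.98), a structural myelin protein, Gjc3 (r = 0.98), a connexin of oligodendrocytes, and Trf (r = 0.97), transferrin, which oligodendrocytes make in the brain. The libraries of both groups enter these values, and all 9 share 1 scaling. The 3 genes were picked for their r in these same data. Such maxima over 9 libraries were high for other members too, as for Tnr with Lzic (r = 0.98). Mobp had a log2 fold change of −0.30 (unadjusted p = 0.0169, adjusted p = 0.219, limma-voom). Of 8 markers of mature oligodendrocytes, 7 (among them Mbp, Mobp, Cnp and Mag) were lower in Emul at an unadjusted p under 0.05, with a median log2 fold change of −0.30 over the 8. Of all genes tested, 8.99% were lower at that p, and 0 of the 8 had an adjusted p under 0.05. Without the 3 libraries rich in thalamic markers, 2 of these 8 markers had an unadjusted p under 0.05, with a median of −0.27. The summed level of the 8 was 13941 to 17524 CPM in CTRL and 10812 to 14875 CPM in Emul, and none of them was at 0. Their part in the Hapln2 values was not tested.

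**Figure D3:**
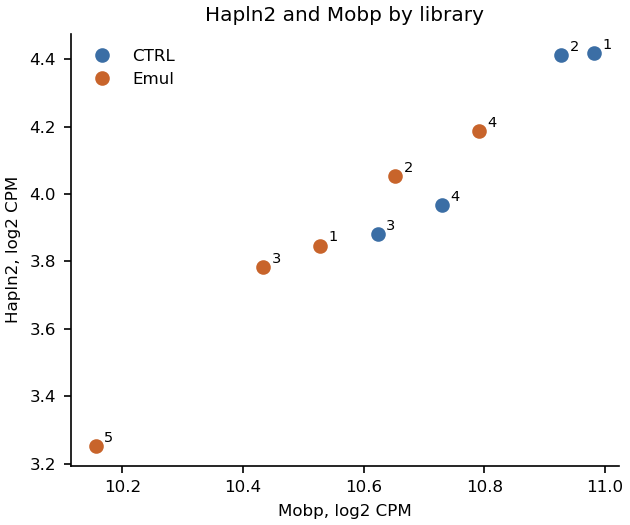
Log2 CPM of Hapln2 against log2 CPM of Mobp, 1 point per library with its replicate number, CTRL in blue and Emul in orange. Mobp was picked as the gene with the highest correlation to Hapln2. The points lie along 1 line in both groups, from Emul 5 at the lower end to CTRL 1 and CTRL 2 at the upper end.

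Tenascin-R (chr1:159523769-159931729, plus strand), which is made by oligodendrocytes and by some neurons, was the second most abundant of the 10 genes per length. Its log2 CPM ranged from 8.63 to 8.81 in CTRL and from 8.57 to 8.76 in Emul, and the groups overlapped. The log2 fold change was −0.05 (SE 0.047, 95% interval −0.15 to 0.05). Its closest genes by correlation were Lzic, Ubxn7 and Fzd3 (r = 0.98, 0.95 and 0.94).

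Has3 (chr8:106870242-106884566, plus strand) was the only one of the 9 tested genes in which no Emul library reached a CTRL library in log2 CPM from summed counts. Its log2 CPM was 1.85, 2.05, 2.15 and 2.00 in CTRL 1 to 4, and 1.52, 1.83, 1.77, 1.81 and 1.84 in Emul 1 to 5. The gap between the groups was narrow, from 1.84 in Emul 5 to 1.85 in CTRL 1, and Emul 1 stood below the rest of its group. The log2 fold change was −0.25 (SE 0.10, 95% interval −0.47 to −0.03), with an unadjusted p of 0.0286 and an adjusted p of 0.257 (limma-voom), and the exact permutation test gave 0.0079, the smallest p that it can give. The call was lost without Emul 1 (log2 fold change −0.19, unadjusted p = 0.0721) and without CTRL 2, CTRL 3 or CTRL 4 (−0.24, −0.22 and −0.25, unadjusted p = 0.0660, 0.0735 and 0.0529).

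The counts behind Has3 were low, 111 to 171 per library, and its 2 main coding transcripts were split unevenly. The longer one held between 57.1 and 91.3% of the counts of a library, with the lowest shares in Emul 2 and Emul 4. In the authors' table, the log2 fold change of Has3 was −0.17 (unadjusted p = 0.237, limma). There the groups overlapped, from 1.86 to 2.27 log2 CPM in CTRL and from 1.53 to 2.10 in Emul (exact permutation test, p = 0.278). They also overlapped in TPM, from 1.23 to 1.71 in CTRL and from 0.92 to 1.38 in Emul (exact permutation test, p = 0.0952). The gene overlaps Chtf8 on the opposite strand, a coding gene with 1142 to 1730 counts per library. The library kit keeps the strand, but whether the counting used it is not given in the sources used here, so reads of the overlap may be shared between them. Has3 was most alike in its pattern to Erlin1, Gna13 and Ddi2 (r = 0.97 for each).

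Has2 (chr15:56665627-56694539, minus strand), the main hyaluronan synthase of the embryo, was at the floor of detection, with 27.5 to 43.2 counts per library and more than 1 CPM in only 2 libraries. Its log2 CPM was −0.20, −0.11, 0.35 and 0.07 in CTRL 1 to 4, and −0.42, 0.02, −0.03, −0.10 and −0.05 in Emul 1 to 5. The groups overlapped widely, and the means differed by −0.14 (exact permutation test, p = 0.405).

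**Figure D4:**
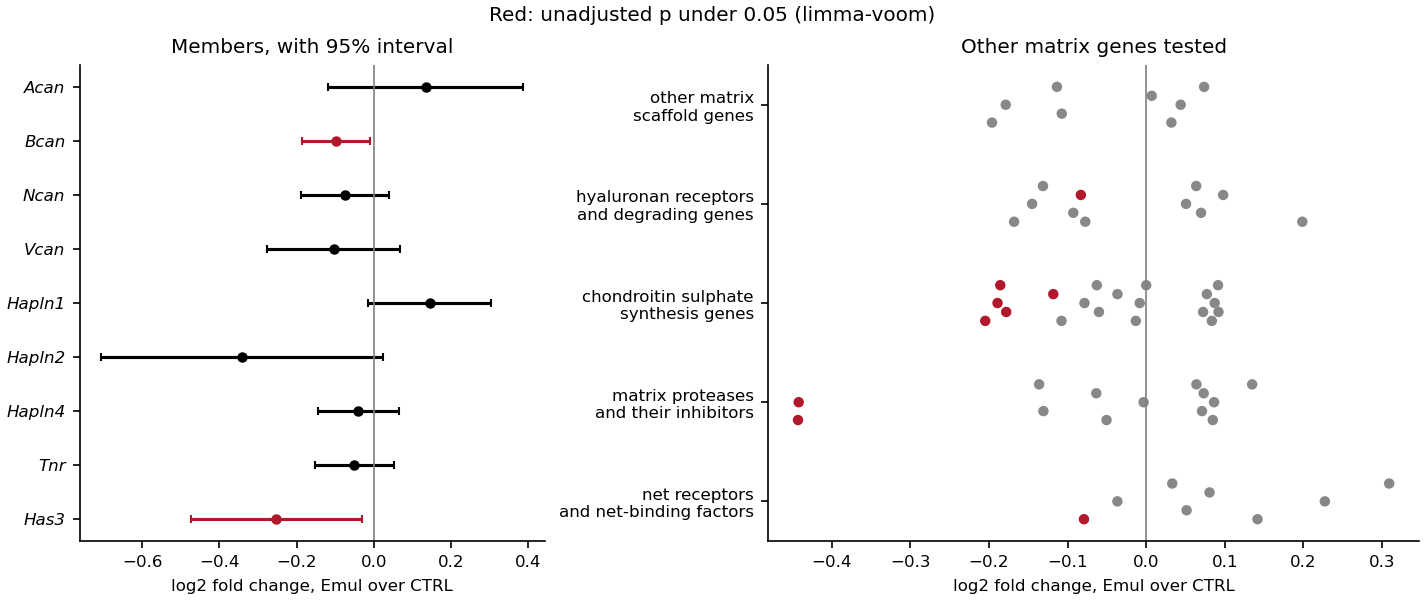
Log2 fold changes of Emul over CTRL from limma-voom. Left, the 9 matrix genes tested with their 95% intervals; right, the other matrix genes tested, 1 point per gene in 5 lists. Red marks an unadjusted p under 0.05, which holds for Bcan and Has3 on the left and for 9 genes on the right, all of them lower in Emul.

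Per unit length, brevican was by far the most abundant of the 10 genes and Has2 the least. In mean TPM over all libraries Bcan stood at 269.5, Tnr at 74.0, Ncan at 43.0, Hapln4 at 39.8, Hapln2 at 18.1, Vcan at 15.2, Hapln1 at 6.19, Acan at 2.15, Has3 at 1.33 and Has2 at 0.425. The order was the same in CTRL and in Emul. Some neighbors in this order overlapped between libraries and were not apart beyond their spread, namely Ncan with Hapln4, Hapln2 with Vcan and Acan with Has3. The lower part of the order changed with the transcripts that were counted. With the longest coding transcript of each gene alone, Hapln2 had a mean of 1.96 TPM and moved from the fifth to the seventh place, behind Vcan at 5.35 and Hapln1 at 3.52. TPM of all genes tested was shifted between the groups by a median of −0.10 on the log2 scale. Beside that shift, the TPM differences of Bcan and Ncan came to −0.12 and −0.08. Their groups did not overlap in TPM (272.8 to 311.0 against 244.6 to 261.1, and 43.6 to 48.4 against 35.8 to 42.8), but did in log2 CPM. The share of all genes without overlap in TPM was not counted.

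**Figure D5:**
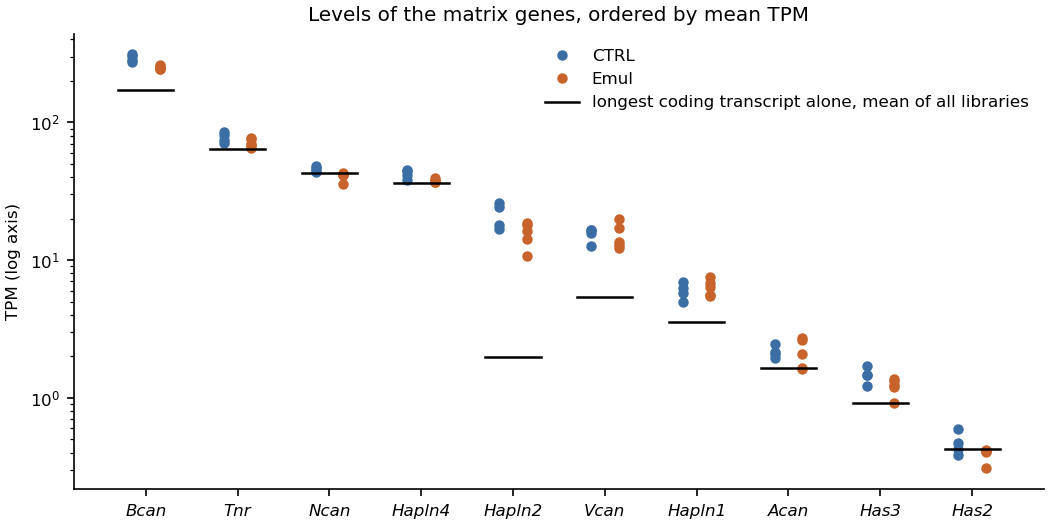
TPM of the 10 genes on a log axis, ordered by their mean, with 1 point per library (CTRL blue, Emul orange) and a black line at the mean of the longest coding transcript alone. The line lies far below the points for Hapln2 (1.96 TPM against 18.1) and for Vcan (5.35 against 15.2), and close to them for Ncan, Hapln4 and Tnr.

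The genes that build, modify and bind this matrix were examined as 5 further lists. Of 63 genes found, 59 were tested, and 9 of them (15.3%) had an unadjusted p under 0.05, beside 15.8% of all genes in both directions together. All 9 were lower in Emul and 0 were higher, beside 8.99% and 6.84% of all genes. No test of these lists against all genes was made, and 0 of 59 had an adjusted p under 0.05. The median log2 fold change over the 59 was −0.01 and 31 were lower. Libraries of CTRL and Emul did not overlap in 4 of the 59, beside 6.60% of all genes.

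Of 19 genes of chondroitin sulfate synthesis tested, 5 were lower and 0 higher at an unadjusted p under 0.05, with a median of −0.04. Chsy1, which polymerizes the chain, had 4.10 ± 0.07 log2 CPM in CTRL and 3.91 ± 0.05 in Emul without overlap (log2 fold change −0.19, adjusted p = 0.137, limma-voom). Without the 3 libraries rich in thalamic markers, Chsy1 was at −0.14 (unadjusted p = 0.0603, limma-voom). Chst3, which adds the 6-O-sulfate, had a log2 fold change of −0.20 (adjusted p = 0.173), and Ust, the uronyl 2-sulfotransferase, one of −0.18 (adjusted p = 0.156). Xylt1, which attaches the first sugar to the core protein, and Dse, the epimerase that makes dermatan sulfate, were at −0.12 and −0.19 with weaker p-values. Chst11, the 4-O-sulfotransferase, was at −0.01 and did not pass the test.

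Among 13 matrix proteases and inhibitors tested, Adamts1 and Adamts4 had the largest differences of the 59 genes. Both enzymes cleave lecticans. Adamts4, which is expressed in oligodendrocytes, had 6.43 ± 0.15 log2 CPM in CTRL and 5.98 ± 0.24 in Emul (log2 fold change −0.44, SE 0.11, adjusted p = 0.112, limma-voom). Adamts1 had 3.35 ± 0.08 and 2.92 ± 0.22 (log2 fold change −0.44, SE 0.10, adjusted p = 0.107). Neither overlapped between the groups, and neither reached 1.5-fold or an adjusted p of 0.05. For Adamts4 the gap was narrow, from 6.245 in Emul 4 to 6.254 in CTRL 4. The inhibitors Timp2 and Timp3, the most abundant genes of the list, were at 0.07 and 0.06 without passing the test.

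Of 8 net receptors and net-binding factors tested, Ptprs, a receptor for chondroitin sulfate on axons, was lower at an unadjusted p under 0.05 and without overlap, by a small amount (log2 fold change −0.08, adjusted p = 0.204, limma-voom). Of 11 other hyaluronan genes tested (precursor enzymes, receptors and degrading enzymes), Ugdh was lower at an unadjusted p of 0.0493 (log2 fold change −0.08). Ugdh neither binds nor degrades hyaluronan but makes the glucuronic acid precursor of hyaluronan and chondroitin sulfate. Of 8 further genes tested, listed as scaffold genes but with the hyaluronan synthase Has1 among them, 0 had an unadjusted p under 0.05. The most abundant, Ptprz1 (phosphacan), was at 0.04. Has1 had more counts than Has2 or Has3, 184 to 299 per library, and was at −0.20 (unadjusted p = 0.0585, adjusted p = 0.335, limma-voom).

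Markers of the cells that make or carry nets were read beside these values. Of all genes tested, 6.84% were higher in Emul and 8.99% lower at an unadjusted p under 0.05. No marker in the lists that follow had an adjusted p under 0.05. None of 7 markers of fast-spiking neurons, the classical net-bearing cells, passed an unadjusted p of 0.05, and their sum was 526 to 576 CPM in CTRL and 524 to 573 CPM in Emul. Of 7 pan-neuronal markers, 5 (Rbfox3, Snap25, Tubb3, Stmn2 and Nefl) were higher in Emul at that p, with sums of 3342 to 3618 and 3635 to 3894 CPM that did not overlap. Of 7 astrocyte markers, 1 (Gfap, −0.40) was lower, with sums of 3990 to 4090 and 3762 to 4043 CPM. Of 7 markers listed for oligodendrocyte precursors, 3 (Olig1, Bcas1 and Neu4) were lower, with sums of 879 to 1007 and 812 to 950 CPM. Olig1 is expressed throughout the oligodendrocyte lineage, and Bcas1 and Neu4 in cells already committed to it. Pdgfra and Cspg4, which are more specific to precursors and were singled out after their values were seen, did not pass the test (unadjusted p = 0.992 and 0.126, limma-voom). Lists for tanycytes, microglia and cortex gave 0 calls and that for endothelial cells 1 (Slco1a4, lower). None of the markers of neurons, astrocytes or oligodendrocyte precursors was at 0 in any library, and their part, or that of the myelin genes above, in the brevican and Adamts4 values was not tested.

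The other genes whose pattern over the 9 libraries came closest to a member, by Pearson's r, were these. Brevican was closest to Gnb2 (r = 0.96), Atat1 and Ralgds (0.95 for both). Neurocan was closest to Tspan9 (0.94), Tssc4 (0.92) and Dnmt3a (0.90), and versican to Itprid2 (0.95), Rbm28 (0.94) and Zfp488 (0.92). Aggrecan was close to Wdr43 and Rad21 (0.93 for both). Hapln1 was closest to Gm14325 (0.96), Snapc5 (0.90) and Lynx1 (0.90), and Hapln4 to Smg5, Samd1 and Sumf2 (0.92, 0.92 and 0.91). Acan, Has2 and Has3 themselves were too low to be compared with the other members.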

How the data were processed

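RNA of the MBH of P21 male mice was sequenced by the authors from strand-specific libraries. They ran kallisto (0.46.1 per the submitters' processing notes, which also name FastQC 0.11.9 and edgeR 3.40.1) on mm10 and deposited, per library, estimated counts and TPM for 119414 transcripts, neither rounded nor scaled between libraries. A second deposited table gives log2 CPM values for 14592 named genes, without Has2. How that table was summarised to genes is not given in the sources used here.

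Transcripts were matched to genes of GENCODE M21 (97.8% matched). Unmatched transcripts, with 1.20 to 1.27% of a library's counts, were dropped. Gene counts are sums of estimated counts over transcripts, rounded only where edgeR or DESeq2 tested them. Genes with more than 1 CPM in at least 4 libraries were kept, as in the study. The groups were compared by limma-voom (limma 3.58.1, edgeR 4.0.16 for TMM, R 4.3.3) without covariates, with Benjamini-Hochberg adjustment over all 15340 genes. Log2 CPM of single libraries carries a prior count of 2. Single values and transcript shares (transcripts with at least 10% of the counts of their gene) were compared by two-sided exact permutation tests on the absolute difference of means (SciPy 1.17.1, NumPy 2.4.6). Likeness was Pearson's r over 9 libraries among genes with a mean log2 CPM above 3. The scripts were tested on simulated data. The fit was repeated with limma-trend, DESeq2 1.42.0, the quasi-likelihood test of edgeR, other scalings, filters and gene summaries, the authors' table, a replicate block, sample weights, and with each library or the 3 libraries rich in thalamic markers left out. No batch, date or lane is given in the labels.

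The members and lists were chosen with earlier results of these data known. All 10 members are named, from the other lists those with an unadjusted p under 0.05 and up to 3 of the most abundant, and the 3 genes most like a member. Has1 is named outside this rule. Some genes that meet this rule are not reported here.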

Additional observations from a re-analysis of the deposited data

Results flagged for a closer look

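In groups of 4 or 5 libraries, a library was looked at again where it stood apart from the rest of its group by Dixon's criterion at the 95% level. Over the 10 genes and 11 transcript shares, 42 groups were examined, in which about 2.1 such libraries are given by chance, and 5 were found. Emul 1 accounted for 3 of them, each time as the lowest Emul library. It had 7.13 log2 CPM of Ncan, where the other Emul libraries had 7.32 to 7.39. It had −0.42 log2 CPM of Has2 (others −0.10 to 0.02) and 1.51 log2 CPM of Has3 (others 1.77 to 1.84). In Emul 3, 80.6% of the Bcan counts fell on the transcript that holds most of them, against 82.9 to 83.5% in the other Emul libraries. In CTRL 1, 98.8% of the Hapln4 counts fell on the main Hapln4 transcript, against 99.1 to 99.2% in the other CTRL libraries.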

How the results depend on the processing

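The number of the 9 genes with an unadjusted p under 0.05 was 2 in the reported fit and ranged from 1 to 3 with 1 library left out. It was 1 with counts scaled from TPM by length, with sample quality weights, with the authors' table, with the 3 libraries rich in thalamic markers left out together (an alternative chosen after seeing the data) and with the replicate number as a block. Same-numbered libraries of CTRL and Emul did not deviate together (r from −0.16 to 0.02 over 4 pairs, and 0 of 4 CTRL libraries matched their own number best), so the numbers were not taken as pairs; under the replicate block, Bcan had a log2 fold change of −0.09 (unadjusted p = 0.0933) and Has3 one of −0.28. The sign of Vcan reversed to 0.0781 with counts scaled from TPM by length and to 0.0709 in the authors' table, and that of Tnr to 0.0355 without the 3 libraries rich in thalamic markers. With the longest coding transcript alone, 3 genes changed place in the order of levels. Over 23 alternatives, Bcan passed an unadjusted p of 0.05 in 14 (log2 fold change −0.13 to −0.07), Has3 in 16 (−0.44 to −0.17), Hapln2 in 6 (−0.82 to −0.21), Hapln1 and Vcan in 1 each, Acan in 1 (0.06 to 0.37), and Ncan (−0.11 to −0.03), Hapln4 (−0.09 to −0.01) and Tnr in 0. The cause of these differences was not tested. Has2, Has3 and Acan had the lowest counts of the 10 genes.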
